A study of Mus musculus with 8 samples.

Results

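The scavenger and C-type lectin receptors of RAW macrophages, a virus-transformed mouse macrophage line, were followed to see how statin changes them in resting cells and under LPS. The 10 genes, out of 24421 entries in the table of normalized read counts, were taken by name: Clec4n, Clec4d, Clec4e, Clec7a, Clec5a, Olr1, Cd36, Msr1, Cd68 and Mrc1. All 10 had enough reads to be tested. The 8 libraries formed 4 groups of 2: statin LPS, ctl LPS, statin and Ctrl. Statin cells received the drug (lovastatin in the study's methods) at 7 µM with lipoprotein-deficient serum, and the study's methods add mevalonate and a treatment of 2 days. Stimulated cells received lipopolysaccharide (LPS) at 100 ng/ml for 3 h in medium with 1 mg/ml albumin. Ctrl cells are labelled as untreated, and statin LPS cells received both agents. The sources do not state the serum of cells without statin, nor whether they got mevalonate, so a statin effect here is that of drug, serum and mevalonate together. Comparisons of stimulated with resting cells may likewise hold a change of medium. All cells came from 1 transformed line, and nothing in the labels says that the 2 libraries of a group came from separate cultures. The p-values therefore measure only the spread between these libraries, which may be technical.

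Scavenger receptors bind modified lipoproteins, dying cells and microbial surfaces and carry them into the cell, and their uptake of modified lipoprotein turns macrophages into foam cells in the artery wall. C-type lectin receptors of macrophages recognise sugars and glycolipids of fungi and mycobacteria. Many of them signal through the kinase Syk, reached by an adaptor with an activation motif or by a motif of their own, and on through Card9, Bcl10 and Malt1 to NF-kB.

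Libraries held between 37.0 and 76.4 M reads over genes, and 1 read was worth 0.781 to 1.33 normalized counts. All 9 macrophage markers had reads in every library, and their sum lay between 519556 and 774100 normalized counts. Markers of lymphocytes (6 genes) summed to at most 4.35. Markers of other cells that could share these receptors moved with the groups. The 9 osteoclast markers summed to 22467 and 23779 in statin LPS, 7765 and 7720 in ctl LPS, 14596 and 12201 in statin, and 5954 and 6446 in Ctrl, with 7 or 8 of the 9 detected. Of the 7 tested, 5 rose and 2 fell with statin at rest (30.4% and 25.7% of all genes). Under LPS 6 rose and 1 fell (31.4% and 32.9% of all genes). Acp5 was lower with statin in both states, at 130 and 142 in statin LPS against 255 and 205 in ctl LPS, and Ctsk was lower at rest. The 8 dendritic cell markers summed to 29506 and 29050 in statin LPS, 57662 and 59306 in ctl LPS, 21302 and 24382 in statin, and 6486 and 12196 in Ctrl, with 5 to 8 of the 8 detected. Most of that sum was Cd74, at 23386 and 22519 in statin LPS and 54873 and 56728 in ctl LPS, while Itgax ran the other way, at 5603 and 6033 in statin LPS and 2134 and 2097 in ctl LPS. The 3 endothelial markers summed to 20.01 and 9.30 in statin LPS, 513 and 491 in ctl LPS, 2.69 and 0 in statin, and 14.1 and 7.84 in Ctrl, and in ctl LPS most of it was Kdr. Their part in the receptor results was not tested. Fewer cells of a type and less RNA per cell cannot be told apart in such bulk RNA. The complement genes C1qa, C1qb and C1qc summed to 273 and 365 normalized counts in statin LPS and at most 5.88 in any resting library. In ctl LPS the sum was 1634 in replicate 1 and 1.25 in replicate 2. These transcripts are followed up beside Mrc1.

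In resting cells most of these receptors were higher with statin. In statin against Ctrl, 7 of 10 rose and 1 fell, where 30.4% of all 11647 genes tested rose and 25.7% fell (limma, adjusted p under 0.05). The median log2 change was 0.98 over the receptors and 0.01 over all genes tested. In statin LPS against ctl LPS, 3 rose (Clec4n, Olr1 and Clec4d), 3 fell (Clec7a, Msr1 and Clec4e) and 4 were not called. Of all genes 31.4% rose and 32.9% fell in that comparison, so the receptor counts were near those shares. The median log2 change was -0.14 over the receptors and -0.01 over all genes. These counts depend on the scaling of the libraries: with every library set to equal totals 5 were higher and 1 lower, and with quantile normalization 6 and 1. Of all 11647 genes, 6159 were higher and 2065 lower with equal totals, and 3967 and 3200 with quantile normalization. The receptor counts with equal totals were thus near the shares of all genes at that scaling.

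**Figure D1:**
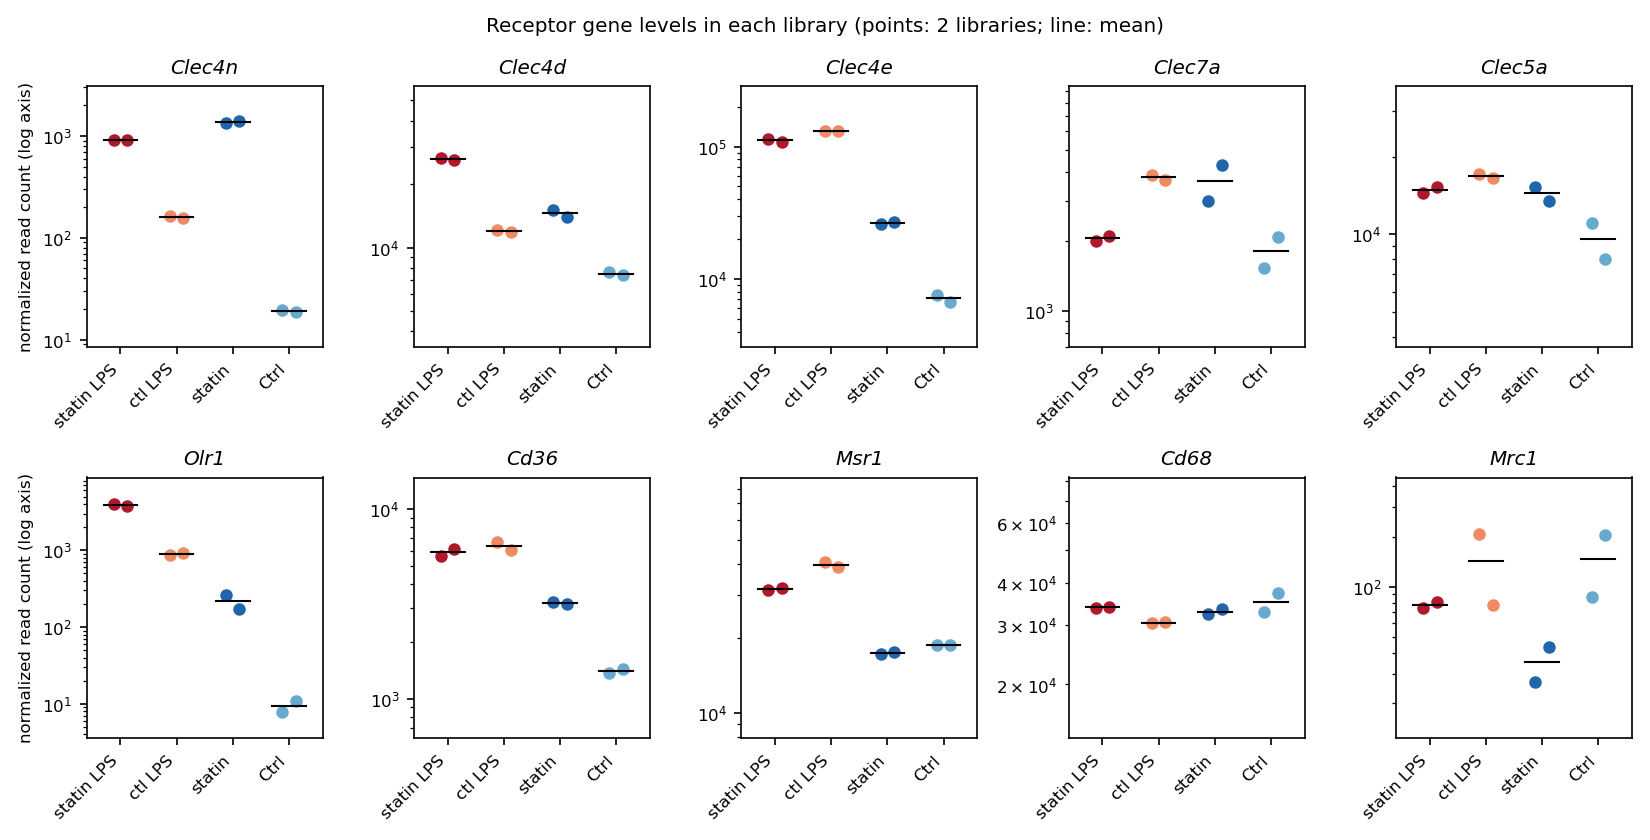
Normalized read count (log axis, a separate range for each gene) of the 10 receptor genes in each library; points are the 2 libraries of a group and the line is their mean. Clec4n stood at 1349 and 1408 in statin libraries against 19.5 and 18.6 in Ctrl libraries, while the points of Cd68 stayed between 30449 and 37303.

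LPS raised 8 of the receptors in cells without statin and 5 in cells with it. In ctl LPS against Ctrl, 8 rose and 1 (Cd68) fell, where 39.9% of all genes rose and 37.6% fell. Either other scaling (equal totals, quantile normalization) left 5 rises, and the fall of Cd68 was lost without either ctl LPS library, among other settings. In ctl LPS against Ctrl, 2114 of all 11647 genes rose with equal totals and 3867 with quantile normalization. With statin already present, in statin LPS against statin, 5 rose (Olr1, Clec4e, Cd36, Clec4d and Msr1), 2 fell (Clec7a and Clec4n) and 3 were not called, where 29.2% of all genes rose and 29.0% fell. With statin replicate 2 and ctl LPS replicate 1 left out, 1 fell. The comparisons share libraries and are given side by side only.

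The statin effect under LPS minus the statin effect at rest, the interaction, was tested directly. It was called for 6 of 10 receptors, near the share of all genes called in either direction, and was negative for those 6 (Clec4n, Olr1, Clec4e, Clec7a, Cd36 and Clec5a) and positive for 0. Of all genes it was negative for 30.1% and positive for 25.5%. Positive receptors numbered 0 at an unadjusted p under 0.05 in limma too, 0 in edgeR and 1, Cd68, in DESeq2 (both by adjusted p). With equal totals or quantile normalization 3 were positive (Cd68, Clec4d and Msr1, the last reversed) and Clec5a was not called. At those scalings 5935 and 3490 of all 11647 genes were positive, so 3 of 10 was near or below these shares. The median interaction was -1.04 on the log2 scale over the receptors and -0.03 over all genes.

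**Figure D2:**
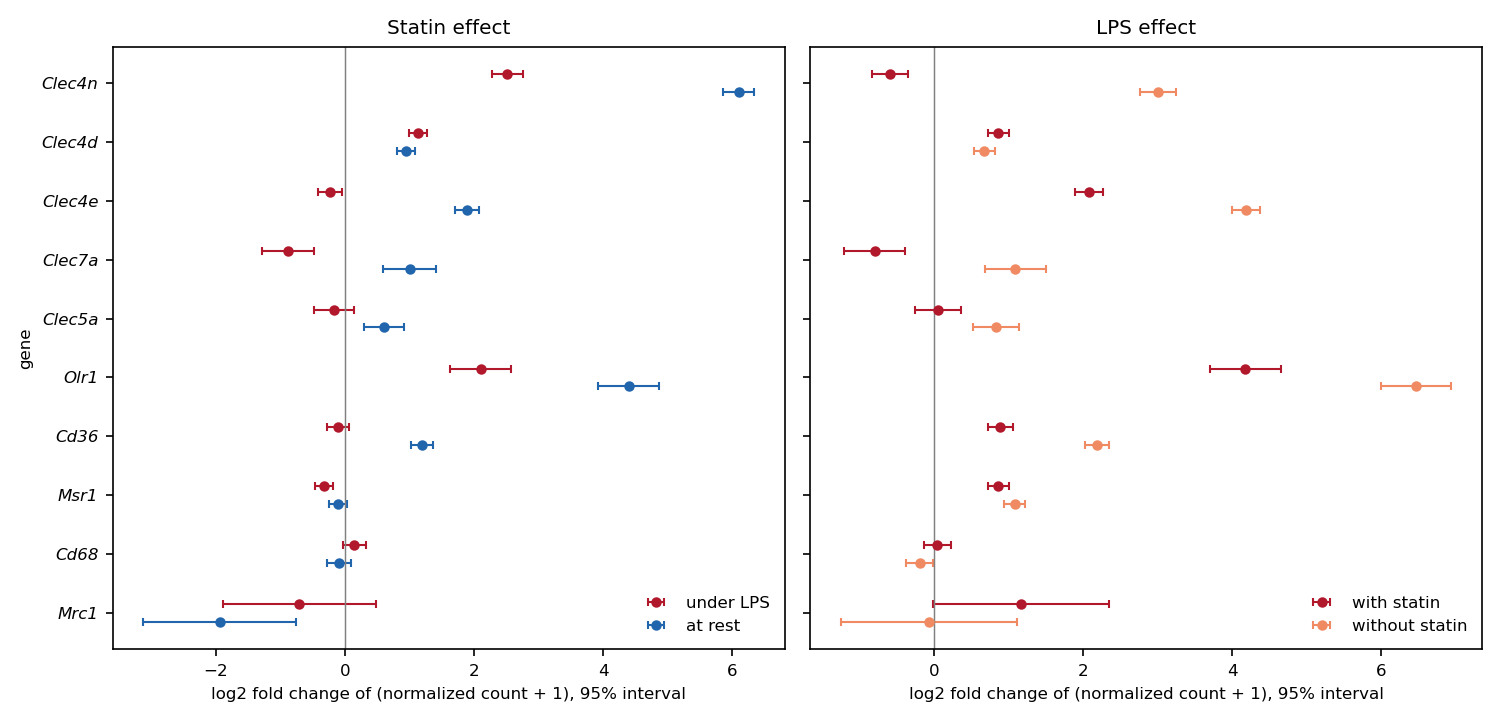
Log2 fold change of (normalized count + 1) with its 95% interval for each receptor gene. Left, the effect of statin under LPS and at rest; right, the effect of LPS with and without statin. For Clec4n the statin effect was 2.52 under LPS and 6.10 at rest, and the LPS effect was -0.59 with statin and 3.00 without.

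The 3 neighbouring lectin genes Clec4n, Clec4d and Clec4e lie on mouse chromosome 6 (GRCm38, GENCODE M21). Clec4n is at chr6:123229843-123247021 on the plus strand, Clec4d at chr6:123262111-123275265 on the plus strand and Clec4e at chr6:123281789-123289870 on the minus strand. Clec4n ends 15.1 kb before Clec4d, and the 3′ ends of Clec4d and Clec4e face each other across 6.52 kb. None of the 10 receptor genes shares exon sequence with another gene of that annotation. For Clec4n, 0.686% of its 50-base stretches also occur in the gene model Gm44147.

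The RefSeq promoter sequences (GRCm38.p6), the 250 bases before the gene start, matched 8 of the 10 receptors. Msr1 and Clec4n were not matched. The promoters of Clec4d and Clec4e are shown since the pair stands next to each other and changed differently under LPS. Both strands were searched for AP-1 (TGANTCA), C/EBP (TTGCNNAA), NF-kB (GGG and CC with any 5 bases between), PU.1 (GAGGAAGT) and the cAMP response element (TGACGTCA), and capitals mark matches.
Clec4d promoter, chr6:123261857-123262106, plus strand: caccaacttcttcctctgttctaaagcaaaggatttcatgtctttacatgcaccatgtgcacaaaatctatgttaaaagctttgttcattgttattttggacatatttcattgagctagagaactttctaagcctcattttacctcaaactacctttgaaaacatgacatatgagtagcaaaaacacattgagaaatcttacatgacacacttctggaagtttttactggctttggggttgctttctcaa
Clec4e promoter, chr6:123289872-123290121, minus strand: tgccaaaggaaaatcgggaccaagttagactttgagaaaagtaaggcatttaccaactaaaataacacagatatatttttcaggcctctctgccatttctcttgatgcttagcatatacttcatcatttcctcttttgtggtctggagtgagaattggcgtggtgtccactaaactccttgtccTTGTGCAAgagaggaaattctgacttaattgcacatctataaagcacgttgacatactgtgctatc
The Clec4e window held 1 C/EBP match, 66 to 59 bases before the start, and 9.55% of 27025 promoters of this length hold one. The Clec4d window held no match to any of the 5 motifs. A match describes letters and is not a binding site.

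Clec4n encodes Dectin-2, which binds fungal mannans and signals through the FcRγ chain. It had 1349 and 1408 normalized counts in statin libraries, against 19.5 and 18.6 in Ctrl libraries, which rested on 25 and 19 reads. The ratio of the mean normalized counts, as for every fold given here, was 72.3. The log2 change, which limma fits to the count plus 1, was 6.10 ± 0.11 (SE, adjusted p = 6.50e-08). Both statin libraries were far above both Ctrl libraries, and this was the largest rise with statin among the 10 receptors. Stimulated cells had 922 and 908 in statin LPS, against 162 and 156 in ctl LPS, a log2 change of 2.52 ± 0.11 (adjusted p = 3.96e-07). The groups again did not overlap. In cells without statin LPS raised Clec4n by 3.00 ± 0.11 on the log2 scale (adjusted p = 3.06e-08), but with statin it was lower under LPS, at -0.59 ± 0.11 (adjusted p = 0.00168). The interaction was -3.59 ± 0.15 (adjusted p = 1.24e-06). Its level ran statin, statin LPS, ctl LPS and Ctrl from high to low, and no neighbours in that order overlapped.

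Clec4d encodes MCL, also called Dectin-3, which pairs with Mincle and raises it at the cell surface. It had 15112 and 13943 normalized counts in statin, against 7623 and 7423 in Ctrl, a rise of 0.95 ± 0.06 on the log2 scale (adjusted p = 1.67e-05). In stimulated cells it had 26624 and 26064 in statin LPS, against 12075 and 11911 in ctl LPS, a rise of 1.14 ± 0.06 (adjusted p = 1.47e-06). Libraries with statin lay above those without it in both states. The interaction was 0.19 ± 0.09 (95% interval -0.01 to 0.39, adjusted p = 0.102), with 0.65 under equal totals and 0.56 under quantile normalization, which both called it. The LPS change in cells without statin was 0.67 ± 0.06 (adjusted p = 1.28e-05), but it turned to -0.15 with equal totals and -0.14 with quantile normalization. Relative to the median gene this change was 0.65 as deposited, 0.65 with equal totals and -0.0006 with quantile normalization. With statin LPS raised Clec4d by 0.86 ± 0.06 (adjusted p = 1.07e-05). The order from high to low was statin LPS, statin, ctl LPS and Ctrl, without overlap.

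Clec4e encodes Mincle, the receptor of the mycobacterial cord factor trehalose dimycolate, and is a known target of Toll-like receptor signals. It had 26204 and 26884 normalized counts in statin, against 7573 and 6731 in Ctrl. The means were 3.71-fold apart (fitted log2 change 1.89 ± 0.08, adjusted p = 3.57e-06). Under LPS it had 114447 and 108890.1 in statin LPS, against 130311 and 130339 in ctl LPS. The statin LPS libraries were slightly below both ctl LPS libraries, at -0.22 ± 0.08 (adjusted p = 0.0404), with an adjusted p between 5.23e-05 and 0.216 over the alternatives. The call was lost in edgeR (0.0641), with no filter on low counts (0.0645) and without any 1 of the 4 stimulated libraries (0.0925 to 0.201), and the sign turned with equal totals (0.12) and quantile normalization (0.23). Set against the median gene, this statin difference was -0.21 as deposited, -0.21 with equal totals and 0.18 with quantile normalization. LPS raised Clec4e by 4.19 ± 0.08 in cells without statin (adjusted p = 1.64e-09) and by 2.07 ± 0.08 with statin (adjusted p = 3.53e-07). The interaction was -2.12 ± 0.12 (adjusted p = 2.87e-06). Stimulated cells of either kind stood above all resting cells.

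Clec7a encodes Dectin-1, the receptor for fungal β-glucan, which carries its own activation motif. The gene lies at chr6:129461591-129472779 on the minus strand, and the annotation lists it as a polymorphic pseudogene. It had 3001 and 4292 normalized counts in statin, against 1534 and 2087 in Ctrl, a rise of 1.00 ± 0.18 on the log2 scale (adjusted p = 0.00178). Under LPS the direction was the other: 2007 and 2116 in statin LPS, against 3881 and 3710 in ctl LPS, a fall of 0.88 ± 0.18 (log2, limma adjusted p = 0.00259). Neither pair overlapped. With each agent alone it was above Ctrl, by 1.08 ± 0.18 for LPS (adjusted p = 0.000524), a call lost with equal totals (0.26, adjusted p = 0.188). With both agents it was near its Ctrl level, between 2007 and 2116 against 1534 and 2087. LPS lowered it in statin-treated cells, at -0.80 ± 0.18 (adjusted p = 0.00517), and the change was -0.54 (adjusted p = 0.0677) with statin replicate 2 and ctl LPS replicate 1 left out. The interaction was -1.88 ± 0.25 (adjusted p = 0.000337), and it was called under all of its alternatives, at -2.14 to -1.43.

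Clec5a encodes MDL-1, a receptor of myeloid cells that signals through the adaptor Tyrobp. It lies at chr6:40574894-40585821 on the minus strand, away from the other lectin genes of chromosome 6. It had 15297 and 13516 normalized counts in statin, against 11106 and 8052 in Ctrl, a rise of 0.60 ± 0.14 (log2, adjusted p = 0.00571). Both statin libraries were above both Ctrl libraries, which themselves lay apart. Under LPS it had 14502 and 15266 in statin LPS, against 17064 and 16457 in ctl LPS, and the difference of -0.17 ± 0.14 was not called (adjusted p = 0.296). The groups did not overlap. LPS raised it in cells without statin by 0.83 ± 0.14 (adjusted p = 0.000531), but with equal totals the change was 0.01 and with quantile normalization -0.07. Measured from the median gene, that change was 0.80 as deposited, 0.80 with equal totals and 0.07 with quantile normalization. In statin cells the LPS change was 0.05 ± 0.14 (95% interval -0.26 to 0.36, adjusted p = 0.771).

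Olr1 encodes LOX-1, a receptor for oxidized low-density lipoprotein whose outer domain has the C-type lectin fold. It lies at chr6:129485244-129507165 on the minus strand, 12.5 kb from Clec7a. Its promoter is shown since it was the receptor gene that LPS raised most.
Olr1 promoter, chr6:129507166-129507415, minus strand: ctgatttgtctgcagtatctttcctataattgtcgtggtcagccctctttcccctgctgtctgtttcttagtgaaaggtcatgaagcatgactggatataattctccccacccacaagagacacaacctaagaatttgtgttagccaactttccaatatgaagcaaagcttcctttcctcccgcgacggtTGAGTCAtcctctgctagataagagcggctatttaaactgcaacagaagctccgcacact
It held 1 AP-1 match (TGAGTCA, in capitals), 60 to 54 bases before the start, and 6.87% of all promoters of that length hold one. Among the other receptors the Cd68 window held 2 AP-1 matches and 1 C/EBP match. The windows of Cd36 and Mrc1 held 1 NF-kB match each, a pattern found in 45.4% of all promoters, and those of Clec5a and Clec7a held none.

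Between its lowest and highest library Olr1 had the widest range of levels as a ratio. It had 262 and 174 normalized counts in statin, against 7.81 and 10.8 in Ctrl, which rested on 10 and 11 reads. The means were 23.5-fold apart (fitted log2 change 4.40 ± 0.21, adjusted p = 4.64e-06). In stimulated cells there were 4018 and 3742 in statin LPS, against 871 and 933 in ctl LPS, a rise of 2.10 ± 0.21 (adjusted p = 4.17e-05). No pair of groups overlapped, and the level ran statin LPS, ctl LPS, statin and Ctrl from high to low. LPS raised Olr1 in cells with statin by 4.18 ± 0.21 on the fitted log2 scale (adjusted p = 1.25e-06, means 17.8-fold apart) and in cells without by 6.47 ± 0.21 (adjusted p = 1.84e-08, means 97.0-fold apart). The statin effect was thus smaller under LPS on the log2 scale, with an interaction of -2.29 ± 0.29 (adjusted p = 0.000253).

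Cd36 encodes a class B scavenger receptor that binds oxidized lipoprotein and long-chain fatty acids. The gene is at chr5:17781690-17888801 on the minus strand. It had 3228 and 3164 normalized counts in statin, against 1358 and 1432 in Ctrl, with means 2.29-fold apart (fitted log2 change 1.20 ± 0.07, adjusted p = 1.13e-05). Under LPS it had 5656 and 6180 in statin LPS, against 6659 and 6061 in ctl LPS. These overlapped, and the difference of -0.10 (95% interval -0.27 to 0.06) was not called (adjusted p = 0.233). It turned to 0.24 with equal totals and 0.12 with quantile normalization. Beside the median gene the difference was -0.09 as deposited, -0.09 with equal totals and 0.07 with quantile normalization. LPS raised Cd36 in both kinds of cells, by 0.89 ± 0.07 with statin (adjusted p = 1.99e-05) and by 2.19 ± 0.07 without (adjusted p = 2.06e-08). The interaction was -1.30 ± 0.10 (adjusted p = 1.53e-05).

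Msr1 encodes the class A scavenger receptor, which takes up acetylated and oxidized lipoprotein. It lies at chr8:39581685-39642673 on the minus strand. In resting cells it had 17377 and 17656 normalized counts in statin, against 18765 and 18803 in Ctrl, and the difference of -0.10 (95% interval -0.24 to 0.04) was not called (adjusted p = 0.197). Stimulated cells had 31464 and 32000.0 in statin LPS, against 40445 and 38891 in ctl LPS, a fall of 0.32 ± 0.06 (log2, limma adjusted p = 0.00198). The statin LPS libraries were below both ctl LPS libraries, but the difference was 0.02 with equal totals and 0.18 with quantile normalization. Relative to the median gene it was -0.31 as deposited, -0.31 with equal totals and 0.13 with quantile normalization. LPS raised Msr1 by 0.86 ± 0.06 with statin (adjusted p = 1.08e-05) and by 1.08 ± 0.06 without (adjusted p = 6.10e-07), and the call without statin was lost with quantile normalization (0.02, adjusted p = 0.765).

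Cd68 encodes macrosialin, a glycoprotein of late endosomes and lysosomes that is used as a marker of macrophages. It lies at chr11:69664213-69666153 on the minus strand. It had 32336 and 33440 normalized counts in statin, against 32851 and 37303 in Ctrl. The groups overlapped, and the difference was -0.09 (95% interval -0.27 to 0.09, adjusted p = 0.359). Under LPS it had 33789 and 33921 in statin LPS, against 30449 and 30560 in ctl LPS. The statin LPS libraries were slightly higher, and the difference of 0.15 (95% interval -0.03 to 0.33) was not called (adjusted p = 0.127), though it was in a fit of those 4 libraries alone (adjusted p = 0.000198) and with equal totals (0.49). LPS lowered Cd68 in cells without statin, at -0.20 ± 0.08 (adjusted p = 0.0462), a call lost without either ctl LPS library (0.179 and 0.167). Among the 10 receptors it moved least across the 4 groups, with a level between 30449 and 37303.

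Mrc1 encodes the mannose receptor, CD206, which binds mannose-rich glycoproteins and is used as a marker of alternatively activated macrophages. It lies at chr2:14229392-14332057 on the plus strand. It was the receptor with the least agreement between libraries. In resting cells it had 26.9 and 43.2 normalized counts in statin, against 86.7 and 205 in Ctrl. Both statin libraries were below both Ctrl libraries, and the log2 change was -1.94 ± 0.51 (adjusted p = 0.0124, and 9.61e-05 to 0.0930 over the alternatives). Leaving out Ctrl replicate 2 gave -1.32 (adjusted p = 0.0652), and leaving out statin replicate 1 gave -1.60 (adjusted p = 0.0930), neither of them called.

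Under LPS the 2 ctl LPS libraries did not give the same level of Mrc1. Statin LPS had 73.9 and 81.0 normalized counts, against 206 in ctl LPS replicate 1 and 77.6 in ctl LPS replicate 2, which rested on 245 and 62 reads. The statin LPS libraries lay on either side of ctl LPS replicate 2 and well below ctl LPS replicate 1. The difference of -0.70 ± 0.51 was not called (adjusted p = 0.261). With ctl LPS replicate 2 alone it was -0.004 (adjusted p = 0.995), and with ctl LPS replicate 1 alone it was -1.40 (adjusted p = 0.0468). In ctl LPS against Ctrl the change was -0.08 ± 0.51 (95% interval -1.26 to 1.11) and not called, with -0.77 without ctl LPS replicate 1 and 0.62 without ctl LPS replicate 2. With statin, the LPS change was 1.16 ± 0.51 (adjusted p = 0.0844), though the 2 groups did not overlap, and it was called in DESeq2 (adjusted p = 0.0398), in a fit of those 4 libraries alone (0.0104) and without any 1 library of Ctrl or ctl LPS (0.0437 to 0.0471). The sign of that LPS change in cells without statin also turned without Ctrl replicate 2 (0.54) and with quantile normalization (0.02), so it depended on which libraries of either group were used and on the scaling.

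Transcripts of tissue macrophages and fibroblasts were uneven across the same libraries. Of 6 tissue macrophage markers, 4 and 4 had reads in statin LPS, with sums of 280.1 and 384 normalized counts. ctl LPS replicate 1 had 5 of 6 and a sum of 1704, and ctl LPS replicate 2 had 2 of 6 and a sum of 3.76. Lyve1 of that list was at 0 in every library. In resting cells the sums were 7.16 and 7.52 in statin and 5.47 and 10.8 in Ctrl. The collagen genes Col1a1, Col1a2 and Col3a1 summed to 301 and 380 in statin LPS, 768 in ctl LPS replicate 1 and 1.25 in ctl LPS replicate 2, and to at most 1.56 in any resting library. With them the list of 7 fibroblast markers summed to 444 and 541 in statin LPS, 899 and 41.3 in ctl LPS, 437 and 597 in statin, and 45.3 and 166 in Ctrl. Nearly all of the resting sums was Pdgfrb, and Col1a2, Col3a1, Dcn, Lum and Pdgfra were at 0 in the resting libraries. Mrc1 was as high in Ctrl replicate 2, which had 5.88 normalized counts of the C1q genes, as in ctl LPS replicate 1. The part of such transcripts in the Mrc1 values was not tested. Both statin LPS libraries held them as well. Leaving out ctl LPS replicate 1 thus cannot show whether they matter in statin LPS against ctl LPS or in statin LPS against statin. Without ctl LPS replicate 1 the other 9 receptors kept their directions in the comparisons with ctl LPS, and the calls lost were those of Clec4e against ctl LPS and of Cd68 against Ctrl.

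**Figure D3:**
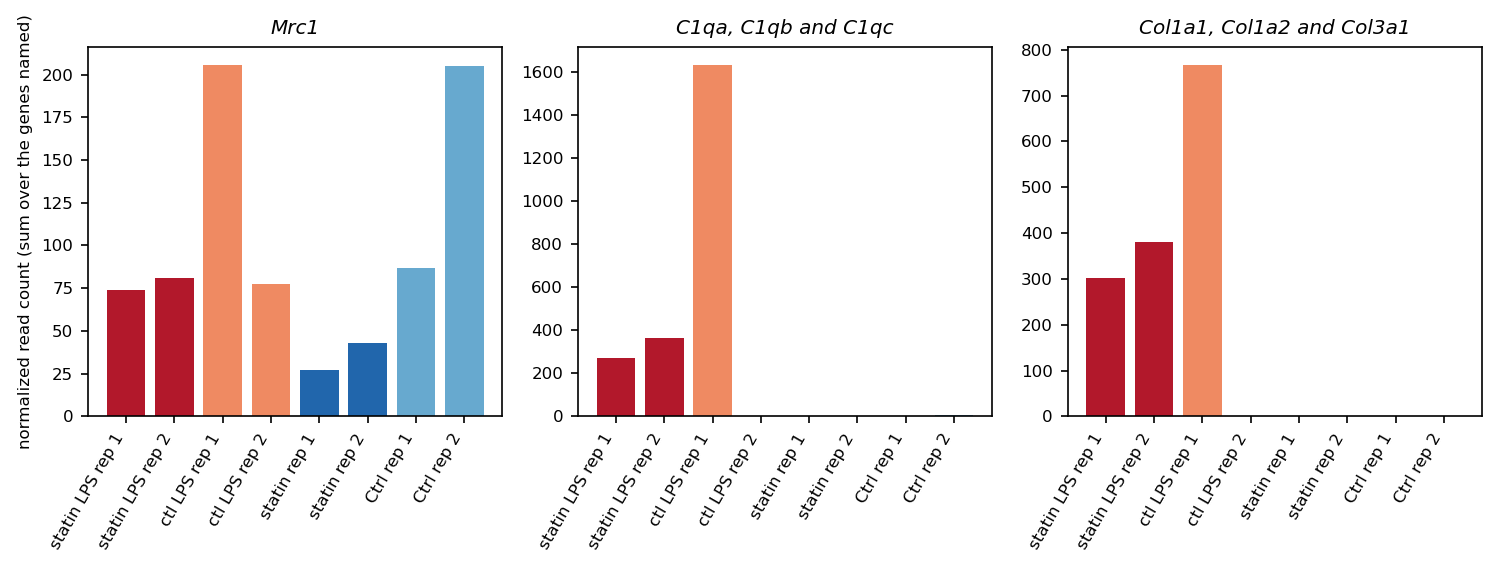
Normalized read count of Mrc1 (left), summed C1qa, C1qb and C1qc (middle) and summed Col1a1, Col1a2 and Col3a1 (right) in each of the 8 libraries, on linear axes with a separate range for each panel. Mrc1 was at 206 and 77.6 in the 2 ctl LPS libraries, where the C1q sum was 1634 and 1.25. In statin LPS the C1q sum was 273 and 365.

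Levels of different genes were compared per kb of exon. In Ctrl, Cd68 had the highest level, at 27906 ± 2504 normalized counts per kb (SD, n = 2). Clec4d followed at 4705 ± 88.3, Msr1 at 2961 ± 4.20, Clec5a at 2495 ± 562 and Clec4e at 1441 ± 120. Msr1 and Clec5a did not differ beyond the spread of Clec5a. Clec7a stood at 686 ± 148 and Cd36 at 389 ± 14.5. The 3 lowest were Mrc1 at 22.9 ± 13.1, Clec4n at 13.4 ± 0.446 and Olr1 at 2.60 ± 0.589, and the spread of Mrc1 reached Clec4n. In statin Clec4n, at 970.6 ± 29.6 per kb, stood above Cd36, at 890.2 ± 12.7. Under LPS Cd68 was first and Clec4e second in statin LPS, at 26933 ± 74.2 and 22491 ± 791 per kb. In ctl LPS Clec4e, at 26249 ± 3.86, was above Cd68, at 24267 ± 62.3. Clec4d came next in both, at 16475 ± 247 in statin LPS and 7500 ± 72.4 in ctl LPS.

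Genes around the receptors on chromosome 6 did not all move with them. Within 150 kb of the Clec4 genes 1 other gene was tested, Clec4a2, an inhibitory lectin receptor, which was not called in statin against Ctrl (0.36, adjusted p = 0.162), statin LPS against ctl LPS (0.09, adjusted p = 0.715) or ctl LPS against Ctrl (-0.46, adjusted p = 0.0645). Around Olr1 and Clec7a, Clec12a, another inhibitory lectin receptor, fell with statin by 0.77 at rest (limma adjusted p = 0.000214) and by 0.89 under LPS (log2, limma adjusted p = 5.14e-05). Gabarapl1, an autophagy gene, rose with statin by 0.94 at rest (adjusted p = 9.65e-06) and by 1.22 under LPS (adjusted p = 5.29e-07). Klrk1, an activating receptor of the lectin family, was not called at rest (0.06, adjusted p = 0.935) and was lower with statin under LPS, at -5.93 (adjusted p = 3.22e-05). Clec1a, another lectin receptor, was not called at rest (-1.02, adjusted p = 0.279) and was lower under LPS, at -2.04 (adjusted p = 0.0419, lost with equal totals at 0.0691). That fall rested on few reads, 0 and 2 in statin LPS against 9 and 5 in ctl LPS. The neighbours thus changed in either direction beside the same receptors.

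Other receptors of the same kinds changed in both directions with statin. Of 16 other scavenger receptor genes 9 were tested, of which 4 rose and 0 fell in statin against Ctrl, where 30.4% and 25.7% of all genes did (median log2 0.26, and 0.01 over all genes). The 2 largest rises were Ager, the receptor for glycated proteins, at 1.37 (adjusted p = 0.0340) and Scarf1, an endothelial scavenger receptor, at 0.69 (adjusted p = 0.00226). The call for Ager was lost with quantile normalization, and it rested on 28 and 22 reads in statin against 11 and 8 in Ctrl. Under LPS 2 rose and 3 fell with statin, near the shares of all genes (31.4% and 32.9%), led by Colec12, a scavenger receptor with a collagen stalk, at 1.03 (adjusted p = 9.73e-06) and Scarf1 at -1.23 (adjusted p = 5.76e-05). Of 29 other C-type lectin genes 14 were tested. With statin 2 rose and 5 fell at rest (30.4% and 25.7% of all genes), and 2 rose and 7 fell under LPS (31.4% and 32.9% of all genes). Cd207, the langerin gene, rose by 1.40 at rest (adjusted p = 0.0403, lost with equal totals at 0.0514) and by 1.86 under LPS (adjusted p = 0.0105). Cd93 had the largest fall at rest, at -3.23 (adjusted p = 0.00791), and the early activation gene Cd69 under LPS, at -3.72 (adjusted p = 1.15e-07).

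Among 17 genes that carry lectin receptor signals, all tested, 7 rose and 3 fell with statin at rest, where 30.4% of all genes rose and 25.7% fell, and the median log2 change was 0.11. Malt1, the paracaspase of the Card9 complex, rose most, by 2.39 ± 0.12 (adjusted p = 6.69e-06). Btk and Card9 itself fell most, at -0.35 and -0.23 (limma adjusted p = 0.000937 and 0.0235). Syk, the kinase these receptors share, rose by 1.09 ± 0.08 at rest (adjusted p = 2.25e-05) and by 2.13 ± 0.08 under LPS (adjusted p = 2.13e-07). Malt1 was not called under LPS (-0.09, adjusted p = 0.535). The interaction was 1.04 ± 0.11 for Syk (adjusted p = 8.54e-05) and -2.49 for Malt1 (adjusted p = 9.52e-06). Of the 17 genes it was positive for 7 and negative for 5, against 25.5% and 30.1% of all genes, and it was negative in 6 of the 10 receptors. Under LPS 6 of the 17 rose, near the 31.4% of all genes, and 1 fell, fewer than the 32.9% of all genes. This was the FcRγ chain gene Fcer1g, which fell by 0.61 ± 0.09 (log2, limma adjusted p = 0.000404). That call was lost with quantile normalization (adjusted p = 0.290). The adaptor gene Tyrobp was called neither at rest (0.05, adjusted p = 0.739) nor under LPS (-0.11, adjusted p = 0.466).

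Of 6 genes for regulators known to act on such receptors, 4 rose and 2 fell with statin at rest, against 30.4% and 25.7% of all genes, and 3 rose and 1 fell under LPS, against 31.4% and 32.9%. Cebpb, a C/EBP factor, rose by 0.91 ± 0.06 at rest (adjusted p = 1.17e-05) and by 1.14 ± 0.06 under LPS (adjusted p = 7.63e-07). Nfe2l2, the oxidative stress factor Nrf2, rose by 0.57 ± 0.08 (adjusted p = 0.000492) and by 1.25 ± 0.08 (adjusted p = 3.12e-06). Rxra went in opposite directions. It had 679 and 732 normalized counts in statin LPS against 245 and 270 in ctl LPS, but 1316 and 1424 in statin against 1584 and 1917 in Ctrl. Pparg, a nuclear receptor with Cd36 among its targets, fell by 1.45 ± 0.28 at rest (limma adjusted p = 0.00280) and by 1.11 ± 0.28 under LPS (limma adjusted p = 0.00845), while Cd36 rose at rest. Of 6 lipid uptake and storage genes 1 rose and 2 fell with statin at rest, and 3 rose and 2 fell under LPS, and so few genes cannot be set apart from these shares. Lpl, lipoprotein lipase, rose by 1.10 ± 0.11 at rest (adjusted p = 0.000118), and Fabp4, a fatty acid carrier, was lower at rest, at -0.66 ± 0.23 (adjusted p = 0.0384), and higher under LPS, at 1.49 ± 0.23 (adjusted p = 0.000596). The largest fall was that of Soat1 at rest, at -0.78 (limma adjusted p = 0.000118), and that of Acsl1 under LPS, at -1.57 (limma adjusted p = 7.39e-07).

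**Figure D4:**
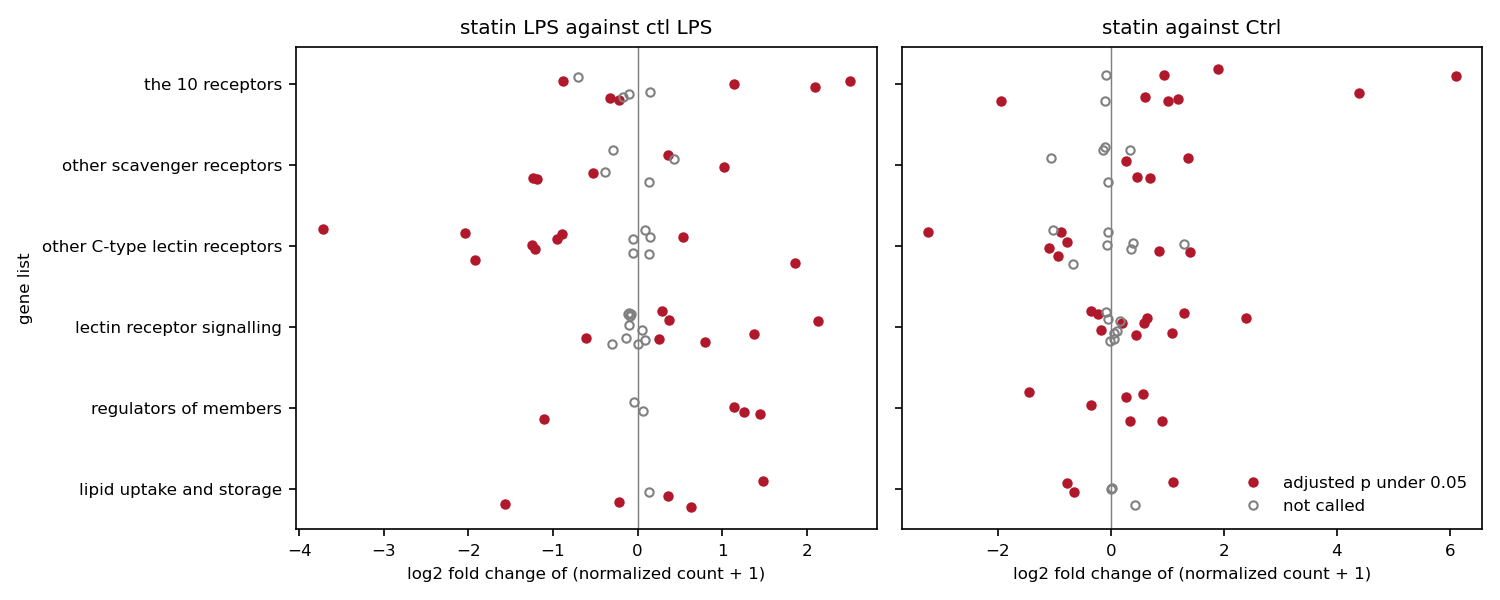
Log2 fold change of (normalized count + 1) for each tested gene of the 10 receptors and of 5 related lists, in statin LPS against ctl LPS (left) and statin against Ctrl (right). Filled points had an adjusted p under 0.05 in limma; vertical jitter within a list has no meaning. The 2 rightmost receptor points at rest are Clec4n at 6.10 and Olr1 at 4.40.

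For each receptor the gene with the most similar levels over the 8 libraries was taken, by Pearson r of the log2 values, as a description. Since the 8 libraries hold 4 groups and each gene was picked from 11647, high values of r arise readily. Clec4d was nearest to Cebpb (r = 0.999), which had 26744 and 27269 normalized counts in statin LPS, 12395 and 12085 in ctl LPS, 15097 and 14854 in statin, and 7950.1 and 7981 in Ctrl. Clec4e was nearest to Junb (r = 0.999), an AP-1 subunit, and Cd36 to Plek (r = 0.998), a substrate of protein kinase C. Mrc1 was nearest to Sepp1 (r = 0.988), the selenoprotein P gene, which also differed between the ctl LPS libraries, at 870.3 in replicate 1 and 284 in replicate 2. The nearest genes of the others were Cx3cl1 for Msr1 (0.998), Dapk3 for Olr1 (0.998), Stx5a for Clec4n (0.992), Prx for Clec5a (0.986), Guca1a for Clec7a (0.984) and Pvt1 for Cd68 (0.944).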

How the data were processed

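RNA was sequenced from 8 libraries. Per the labels, libraries were stranded and made after ribosomal RNA depletion, and the submitters' processing notes name STAR (2.5.3), HTSeq (0.9.1), DESeq2 (1.18.1) and build mm10. The study's methods name Salmon for counting, and whether strand was used in counting is not given in the sources used here. The signal used is the deposited normalized count, the authors' read count divided by a size factor. Dividing by the value of 1 read gave whole reads for 100% of values, within 0.01. Of the table's entries 27 carry a date for a symbol, and 12 other per-sample columns were not used. Files with the authors' own fold changes and p-values were not used. Log2 changes are of the value plus 1 and understate low genes, while folds are ratios of mean normalized counts.

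limma (3.58.1, R 4.3.3) was fitted to log2(normalized count + 1) with 1 mean per group over all 8 libraries, leaving 4 residual degrees of freedom, and eBayes was run with trend. Genes averaging at least 10 normalized counts (11647) were tested, two-sided, with Benjamini-Hochberg adjustment over all of them, and an adjusted p under 0.05 is a call. The fit was tested on simulated data. Alternatives were a pseudocount of 0.5 or 5, no filter or a mean of at least 50, each contrast's own libraries, equal totals, quantile normalization, edgeR (4.0.16) and DESeq2 (1.42.0) on the recovered reads, a replicate block, and leaving libraries out, where a lone library is assumed to vary like the other groups. All 10 receptors are named. From each further list the genes named are among the 2 largest rises and falls called per comparison, and Tyrobp and the neighbouring genes were added after their values were seen. The receptors and lists were chosen with earlier results of these data known. Promoters are from RefSeq and gene positions from GENCODE M21, both on GRCm38.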

Additional observations from a re-analysis of the deposited data

Results flagged for a closer look

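The statin effect differed between stimulated and resting cells for 6 of the 10 receptors, by the interaction test in limma. The test called 30.1% of all genes as negative and 25.5% as positive. A count of 6 is thus near the share of all genes called in either direction. All 6 receptors were negative, where 30.1% of all genes were. The difference, the log2 statin effect under LPS minus that at rest, was -3.59 for Clec4n, -2.29 for Olr1 and -2.12 for Clec4e. It was -1.88 for Clec7a, -1.30 for Cd36 and -0.78 for Clec5a. The difference for Clec5a was not called with equal totals (-0.32), with quantile normalization (-0.33) or without ctl LPS replicate 1 and statin replicate 2 (-0.84, adjusted p = 0.0574). Libraries were left out in turn, but groups of 2 were too small to say which of 2 differing libraries was the outlying one.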

How the results depend on the processing

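Of 940 values of the 50 receptor changes under alternatives, 865 kept their direction and call, 24 lost the call, 28 gained it and 23 turned in sign. Most turns came from scaling. Equal totals moved the median gene to -0.10 in statin against Ctrl, 0.33 in statin LPS against ctl LPS, -0.79 in ctl LPS against Ctrl, -0.38 in statin LPS against statin and 0.42 in the interaction, against -0.03 to 0.02 as deposited.

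In statin LPS against ctl LPS, the sign turned with equal totals and quantile normalization for Msr1 (0.0206 and 0.18), Cd36 (0.24 and 0.12), Clec4e (0.12 and 0.23) and Clec5a (0.17 and 0.22). In ctl LPS against Ctrl it turned for Clec4d (-0.15 and -0.14), and with quantile normalization for Clec5a (-0.0671) and Mrc1 (0.0220). In statin LPS against statin it turned for Cd68 (-0.32 and -0.42) and Clec5a (-0.31 and -0.40), and in the interaction for Msr1 (0.24 and 0.39). Relative to the median gene, all of these changes kept their sign with equal totals. Leaving out 1 library turned Cd68 in statin against Ctrl (range -0.18 to 0.0014, highest without Ctrl replicate 2), Mrc1 in ctl LPS against Ctrl (-0.77 to 0.62, with 0.54 without Ctrl replicate 2 and the highest without ctl LPS replicate 2) and Clec5a in statin LPS against statin (-0.0399 to 0.14, lowest without statin replicate 2, also with ctl LPS replicate 1 left out).

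Counts moved as follows. Receptors lower in statin against Ctrl numbered 2 with equal totals, 2 with quantile normalization and 0 to 2 with 1 library left out. In statin LPS against ctl LPS, 5 were higher and 1 lower with equal totals, and 6 and 1 with quantile normalization. In ctl LPS against Ctrl, 5 were higher with equal totals, and as many (5) with quantile normalization. There, 0 were lower with no filter, 0 with own libraries only, 0 with statin replicate 2 and ctl LPS replicate 1 left out, and 0 to 1 with 1 library left out. In statin LPS against statin, 4 were lower with quantile normalization and 1 with statin replicate 2 and ctl LPS replicate 1 left out. In the interaction, 3 were positive with equal totals, 3 with quantile normalization and 1 in DESeq2, and 0 to 1 with 1 library left out. The cause was not tested. Equal totals shift every gene of a library together, while quantile normalization works by rank and does not. In ctl LPS against Ctrl, Cd68 minus the median gene was -0.22 as deposited, -0.23 with equal totals and -1.05 with quantile normalization.

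Of all genes, equal totals called 2738 higher and 4035 lower in statin against Ctrl (3544 and 2998 as deposited), 6159 and 2065 in statin LPS against ctl LPS (3659 and 3828), 2114 and 7993 in ctl LPS against Ctrl (4648 and 4384), 1556 and 6691 in statin LPS against statin (3401 and 3383), and 5935 and 1892 in the interaction (2973 and 3507). Quantile normalization called 3207 and 3374 in statin against Ctrl, and 3967 and 3200 in statin LPS against ctl LPS. It called 3867 and 5114 in ctl LPS against Ctrl, 2691 and 3776 in statin LPS against statin, and 3490 and 2983 in the interaction. A fit of the own libraries called 2491 and 1992 in statin against Ctrl.

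The labels share replicate numbers 1 and 2 between groups, but replicate differences correlated at only -0.07 to 0.10 between groups, so the numbers were not taken to pair the libraries. The replicate block changed no receptor call, and called 3491 genes higher and 2956 lower in statin against Ctrl. With 2 libraries a group, differences of the size seen for Mrc1 under LPS could not be told from the spread between libraries, and the levels of Olr1 and Clec4n in Ctrl rest on 10 to 25 reads.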
